A study of Mus musculus with 6 samples.

Results

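The subcortical maternal complex is an assembly of proteins that lies beneath the plasma membrane of the mammalian oocyte and persists into the cleaving embryo. Its messenger RNAs are made and stored while the oocyte grows, before fertilization, and loss of *Nlrp5*, *Ooep* or *Tle6* in the mother arrests embryos at the first cleavages. The complex is also linked to the cytoplasmic lattices, fibres that hold stored maternal proteins. The genes described here are *Nlrp5*, *Ooep*, *Tle6* and *Khdc3*, which encode the central proteins, and *Padi6*, *Nlrp2* and *Zbed3*, whose products associate with them. They were chosen by symbol as members of the complex, with earlier results of these data known, and are 7 of the 53465 genes in the table. All 7 carried enough reads to be tested.

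Transcripts were sequenced from 6 pools of M II oocytes, which are arrested at the second meiotic metaphase, from naturally aged females of the outbred Kunming (KM) strain, 9 to 10 months old. In the control group 3 pools were matured in vitro without quercetin, and in the quercetin group 3 pools were matured with 10 μM quercetin, a plant flavonol, for 16 h. Each pool combined 15 oocytes of 3 mice, so that differences between single oocytes cannot be seen, and young oocytes were not part of the comparison. Quercetin was dissolved in DMSO, and the sources do not say whether the control medium held DMSO. The comparison asked how quercetin during maturation changes the transcripts of aged oocytes, here those of the complex.

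The libraries copied polyadenylated RNA, so a transcript with a shorter poly(A) tail and a scarcer transcript cannot be told apart. In pools, fewer oocytes carrying a transcript and less of it per oocyte cannot be told apart either. Total counts ran from 7880467 to 9938743 per pool, and 3 counts, the least taken to show a gene, equalled 0.302 to 0.381 CPM (counts relative to library size). The reads were amplified and carry no molecular identifiers, so the floor covers only the error of counting. The first principal component of all tested genes (32.4% of the variance, these 7 genes included) did not part the groups. Control replicate 2 and quercetin replicate 3 lay at 31.3 and 30.8, away from quercetin replicates 1 and 2 at -37.9 and -30.9, with the other control pools at -3.34 and 10.1. Results that rest on these pools are given with and without them. Whether mice were shared between pools is not given, so the p-values measure the spread between these pools.

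The 7 genes lie at separate places in the genome (GRCm38, GENCODE M21), with *Nlrp5* and *Nlrp2* on chromosome 7 and *Ooep* and *Khdc3* on chromosome 9. *Nlrp5* (ENSMUSG00000015721) spans 23385889 to 23441922 on the plus strand of chromosome 7, and *Nlrp2* (ENSMUSG00000035177) spans 5298547 to 5351035 on the minus strand. *Ooep* (ENSMUSG00000032346) spans only 2617 bases of chromosome 9, from 78376109 to 78378725 on the minus strand, and *Khdc3* (ENSMUSG00000092622) spans 73101836 to 73104438 on the plus strand. *Tle6* (ENSMUSG00000034758) lies on chromosome 10 from 81590904 to 81601073, *Padi6* (ENSMUSG00000040935) on chromosome 4 from 140727355 to 140742643, both on the minus strand, and *Zbed3* (ENSMUSG00000041995) on chromosome 13 from 95323612 to 95337841 on the plus strand. The counting rule for shared sequence is not known. *Khdc3* is the gene it could touch most, since 38.5% of its exon bases overlap *Gm20509* on the same strand, and *Gm20509* itself had 0 to 9 counts per pool. *Nlrp5* shares 12.4% of its 31-base words with other transcripts, chiefly its pseudogene *Nlrp5-ps*, which had 24 to 62 counts. *Padi6* and *Zbed3* share none.

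Promoter sequence is shown for the genes where it helps to compare members with each other. All 7 had a window in the RefSeq table (GRCm38.p6), and the 250 bases before the outermost RefSeq start were searched on both strands. E-boxes, written CANNTG and bound by basic helix-loop-helix proteins, were present in 6 of 7 windows, against 66.2% of 32851 promoter windows. *Nlrp5* is shown because it carries a pair of E-boxes of the same letters, 145 to 140 and 107 to 102 bases before its start. *Tle6*, not shown, also has such a pair, CACGTG, at 183 to 178 and 119 to 114 bases. In contrast, *Zbed3*, the gene with the highest level, has none in the stretch shown and 3 farther upstream. The stretches are chr7:23385739-23385888 (plus strand) and chr13:95323455-95323604 (plus strand), with E-boxes in capitals.
Nlrp5: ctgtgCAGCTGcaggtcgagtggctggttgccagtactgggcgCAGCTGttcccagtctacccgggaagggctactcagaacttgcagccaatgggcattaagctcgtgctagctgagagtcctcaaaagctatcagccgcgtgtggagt
Zbed3: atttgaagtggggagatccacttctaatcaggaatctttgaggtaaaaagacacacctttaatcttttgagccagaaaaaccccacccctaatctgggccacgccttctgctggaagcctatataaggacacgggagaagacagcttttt

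*Ooep*, *Khdc3* and *Padi6* each held an E-box at the same distance, 78 to 73 bases before the RefSeq start. Over all windows 0.484% have an E-box exactly there. The position was picked after the matches were seen, so this is a description of 3 promoters and not a test. The E-boxes of *Khdc3* and *Padi6* are the same letters read on opposite strands, and that of *Ooep* differs, as 30 bases of each show, at chr9:78378649-78378678 (minus strand), chr9:73102308-73102337 (plus strand) and chr4:140742704-140742733 (minus strand), with the E-box in capitals.
Ooep: acccagcctaccCACTTGcgcggtgcgcgc
Khdc3: tctcccccacccCAGGTGcagccagtgagg
Padi6: ctcctccaggctCACCTGtgaacccttaac
For *Ooep* and *Khdc3* the GENCODE transcript begins farther upstream than the RefSeq start, and these 30 bases lie within its span. Of the 250 bases searched, 250 lie within the GENCODE gene for *Khdc3*, 173 for *Tle6* and 137 for *Ooep*. The motif counts over the 7 windows include these bases. CCAAT, the motif named for its letters, was found in 6 of 7 windows (33.8% of all windows), *Zbed3* being the member without it, and GGGCGG in 4 of 7 (32.7%). Both motifs were searched on either strand, and in *Khdc3* a CCAAT overlaps an E-box. The homeobox core TAATTG occurred in *Ooep* alone (7.17% of all windows), where it overlaps the CCAAT, and TAATTA in *Nlrp5* alone (4.84%). The exact letters TATAAA occurred in 0 of 7 (12.4%). Other forms of the TATA box were not searched, and the *Zbed3* stretch shown above holds the similar letters tatataag near its end.

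The levels of the 7 genes, compared per length as TPM (transcript counts per length, scaled to a common total), spread widely. *Zbed3*, a BED-type zinc finger protein, had by far the highest level, 5948 ± 1188 TPM (SD, n = 6), which ranked 23rd among all genes. *Ooep*, a small KH-domain-like protein, followed at 623 ± 331 TPM. *Padi6*, an oocyte member of the peptidylarginine deiminases, was at 318 ± 91.4 TPM. *Nlrp5* (133 ± 40.8 TPM), *Nlrp2* (104 ± 19.0 TPM) and *Tle6* (95.5 ± 23.8 TPM) lay close together. *Khdc3* was lowest at 41.0 ± 17.7 TPM, with a rank of 2421.

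The order held within pools more clearly than across them. The range of *Zbed3* over the pools, 4026 to 7301 TPM, did not overlap that of *Ooep*, 250.1 to 1114 TPM, and the ranges of *Padi6* and *Nlrp5* did not overlap either. *Ooep* and *Padi6* overlapped across pools although *Ooep* was higher within 6 of 6 pools. The same was true of *Nlrp5* over *Nlrp2* and of *Tle6* over *Khdc3*. *Nlrp2* was above *Tle6* in only 4 of 6 pools, and these neighbours swapped when the longest coding transcript replaced the union of exons as the length. The order of means was the same in the control pools and in the quercetin pools.

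**Figure D1:**
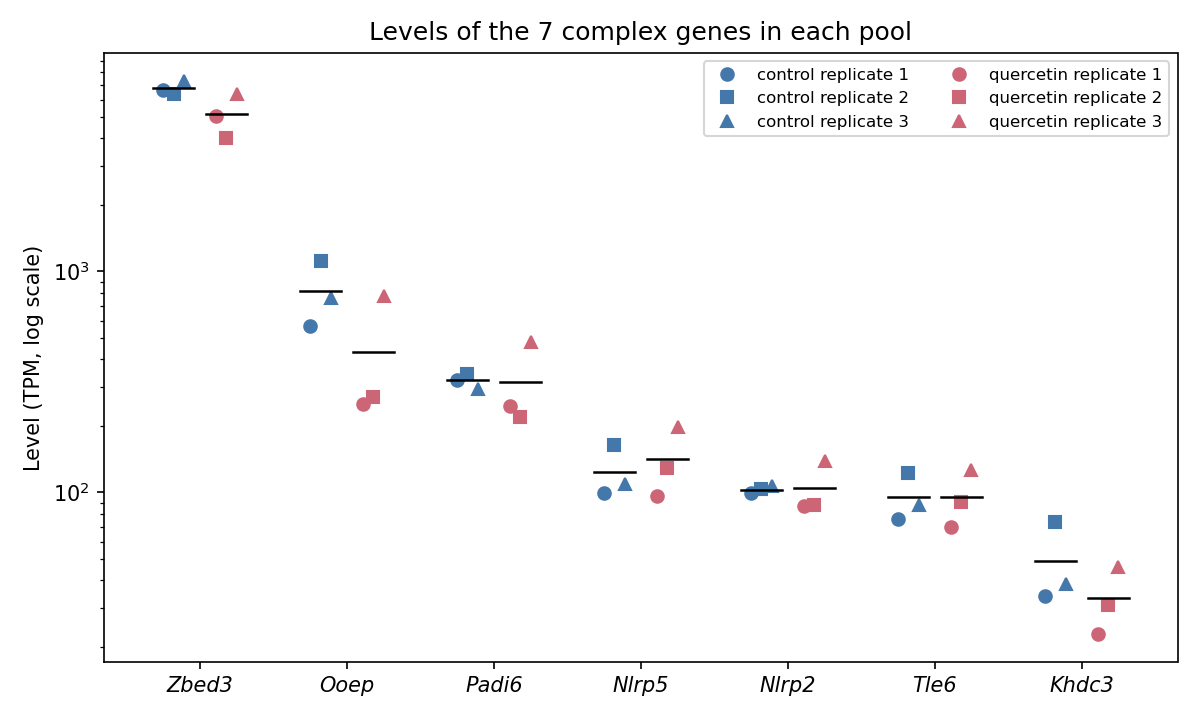
Level of each gene in TPM (log scale, vertical axis) in the 3 control pools (blue) and 3 quercetin pools (red), with marker shapes for the replicate numbers and bars for group means. *Zbed3* lies at 4026 TPM or above in every pool, and *Khdc3* does not exceed 73.4 TPM.

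No gene of the complex passed an adjusted p under 0.05 with a fold change over 2, the criteria used for the comparison of quercetin with control. With the quasi-likelihood test of edgeR and adjustment by Benjamini-Hochberg, 0 of 11842 tested genes passed (0.0%), the smallest adjusted p being 0.0730. DESeq2 called 12 genes, edgeR's likelihood ratio test 16 and limma-voom 0, and none of these tools called a gene of the complex. At an unadjusted p under 0.05, 477 genes were counted in edgeR, which is 4.03% of those tested, with 253 higher (2.14%) and 224 lower (1.89%). With scaling by library size only, the 507 genes at that threshold divided into 145 higher and 362 lower. Among the complex genes, 2 of 7 reached an unadjusted p under 0.05, *Ooep* and *Zbed3*, both lower with quercetin. The log2 fold changes were negative for 4 genes and positive for 3, with a median of -0.01, while the median over all tested genes was -0.03. Quercetin pools lay entirely below control pools for 1 of 7 genes (*Zbed3*) and entirely above for 0 of 7, against 5.17% and 5.42% of all tested genes. The 95% intervals of 5 genes lay within a 2-fold change in either direction, those of *Ooep* and *Khdc3* being the exceptions.

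**Figure D2:**
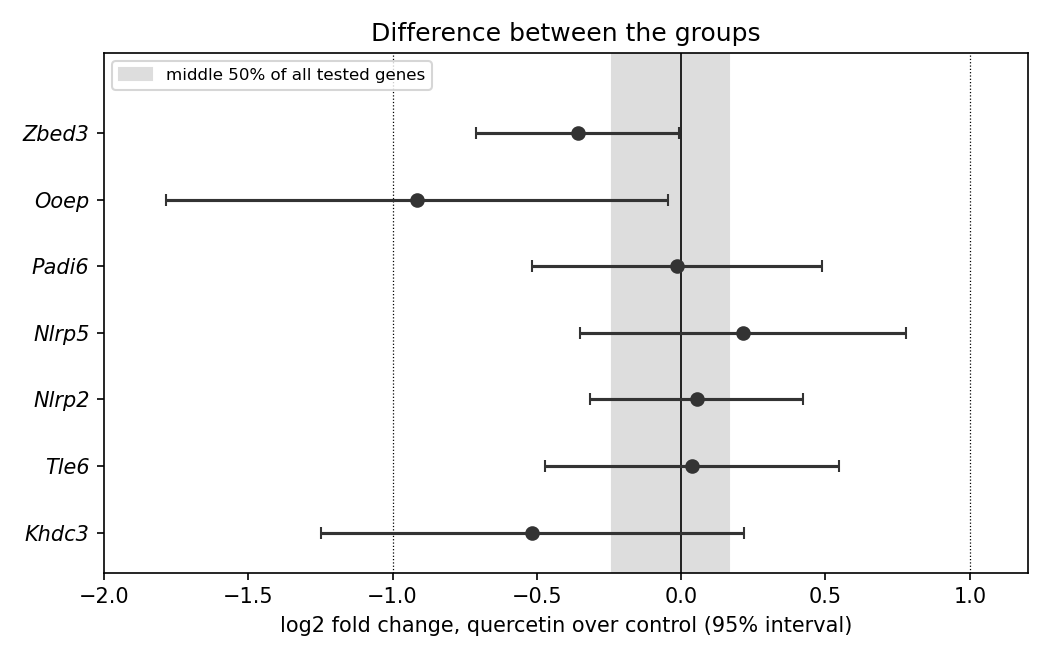
Log2 fold change of quercetin over control (horizontal axis) with its 95% interval for each gene, and the middle 50% of all tested genes in grey. Dotted lines mark 2-fold changes, and the intervals of *Ooep* and *Khdc3* reach beyond the lower line.

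Of the 4 central genes, *Ooep* showed the largest fold change between the groups. Its product is needed for the complex to assemble. The control pools held 490, 971 and 693 CPM and the quercetin pools 236, 269 and 637 CPM, after scaling by TMM, edgeR's trimmed mean of M-values. Quercetin replicates 1 and 2 were below every control pool, while quercetin replicate 3 lay among the controls, so the groups overlapped. Mean levels were 718 ± 242 CPM in control and 381 ± 222 CPM in quercetin (SD, n = 3). This difference corresponded to a log2 fold change of -0.92 with a standard error of 0.38 and a 95% interval from -1.79 to -0.05. The unadjusted p of edgeR was 0.0412 and its adjusted p 0.988, and the two-sided exact permutation test gave p = 0.2, where 0.1 is the smallest p that 3 pools against 3 allow. Without quercetin replicate 3 the log2 fold change was -1.50 (unadjusted p of edgeR 0.000711, adjusted p 0.183), and without control replicate 2 it was -0.63 (unadjusted p of edgeR 0.154). The unadjusted p of edgeR was also over 0.05 without control replicate 3 (0.0727), quercetin replicate 1 (0.125) or quercetin replicate 2 (0.126), and with scaling by library size only (0.0551).

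*Nlrp5*, also called Mater, encodes an NLR protein at the core of the complex. The control pools stood at 195, 324 and 226 CPM, and the pools with quercetin at 205, 291 and 369 CPM. The groups overlapped nearly throughout, with the highest value in quercetin replicate 3 and the lowest in control replicate 1. The log2 fold change was 0.21 (standard error 0.25, 95% interval -0.35 to 0.78), with an edgeR adjusted p of 0.988 and an exact permutation p of 0.6. The log2 fold change was -0.00018 without quercetin replicate 3, 0.07 without control replicate 1, 0.45 without control replicate 2 and 0.41 without quercetin replicate 1.

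*Tle6*, a relative of the Groucho co-repressors that is mutated in some cases of failed human embryo cleavage, had 95.3, 154 and 115 CPM in control pools. In quercetin pools it had 95.2, 129 and 150 CPM. These ranges nearly coincided, and the log2 fold change was 0.04 (standard error 0.23, 95% interval -0.47 to 0.55, exact permutation p = 1.0). *Tle6* came out at -0.11 without control replicate 1 or quercetin replicate 3, at 0.25 without control replicate 2, at 0.20 without quercetin replicate 1, and at -0.04 with library size scaling.

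*Khdc3*, also called Filia, encodes a KH-domain protein linked to chromosome stability in the early embryo. Without quercetin its values were 28.4, 61.4 and 33.8 CPM, and with quercetin they were 20.7, 29.4 and 36.3 CPM. Control replicate 2 stood above all the others, and the remaining 5 pools overlapped between the groups. The log2 fold change was -0.52 (standard error 0.32, 95% interval -1.25 to 0.22), with an edgeR unadjusted p of 0.146 and an exact permutation p of 0.5. Leaving out control replicate 2 brought it to -0.11, and leaving out quercetin replicate 1 to -0.33. *Khdc3* has the fewest reads of the 7 genes, 165 to 511 per pool.

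*Padi6*, required for the cytoplasmic lattices, was even in the control pools at 333, 356 and 319 CPM. The quercetin pools divided, with 276 and 257 CPM in replicates 1 and 2 and 464 CPM in replicate 3. Replicate 3 was therefore above every control pool and the other quercetin pools were below every control pool. The log2 fold change over all pools was -0.01 (standard error 0.22, 95% interval -0.52 to 0.49, exact permutation p = 1.0), and without quercetin replicate 3 it was -0.33 (unadjusted p of edgeR 0.0294, adjusted p 0.334). It was 0.03, 0.10 and 0.14 without control replicate 2, quercetin replicate 1 and quercetin replicate 2, and 0.0031 with DESeq2.

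*Nlrp2*, an NLR protein whose loss in mothers harms early embryos, was the steadiest of the genes from highest to lowest pool. Values of 141, 148 and 159 CPM in control stood beside 135, 143 and 187 CPM with quercetin, and the groups overlapped. The log2 fold change was 0.05 (standard error 0.16, 95% interval -0.31 to 0.42), with an exact permutation p of 0.9. *Nlrp2* turned to -0.10 without quercetin replicate 3 and to -0.02 with library size scaling.

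*Zbed3*, which has been tied to spindle positioning in the oocyte, was the gene whose pools separated. In control there were 6008, 5755 and 6941 CPM, and with quercetin 4992, 4167 and 5423 CPM. Every quercetin pool was below every control pool in CPM, scaled by TMM or by library size alone, but in TPM control replicate 2 (6322 TPM) was below quercetin replicate 3 (6340 TPM). Mean levels of 6234 ± 625 CPM in control and 4861 ± 638 CPM with quercetin (SD, n = 3) gave -0.36 on the log2 scale, with a standard error of 0.16 and a 95% interval from -0.71 to -0.01. The unadjusted p of edgeR was 0.0469, the adjusted p 0.988, and the exact permutation p 0.1, the smallest possible. Leaving out each pool in turn gave -0.44 to -0.26, with an unadjusted p under 0.05 only where quercetin replicate 3 was left out. The unadjusted p was also over 0.05 with DESeq2 (0.0723), edgeR's likelihood ratio test (0.0607) and DESeq2 size factors in edgeR (0.0567).

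Without quercetin replicate 3, the number of complex genes at an unadjusted p under 0.05 rose to 3 of 7, all lower (*Ooep*, *Zbed3* and *Padi6*). The same fit placed 12.8% of all genes at that threshold and 8.13% lower, so the count over all genes rose as well. The adjusted p of edgeR remained above 0.18 for each of the 7 genes.

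**Figure D3:**
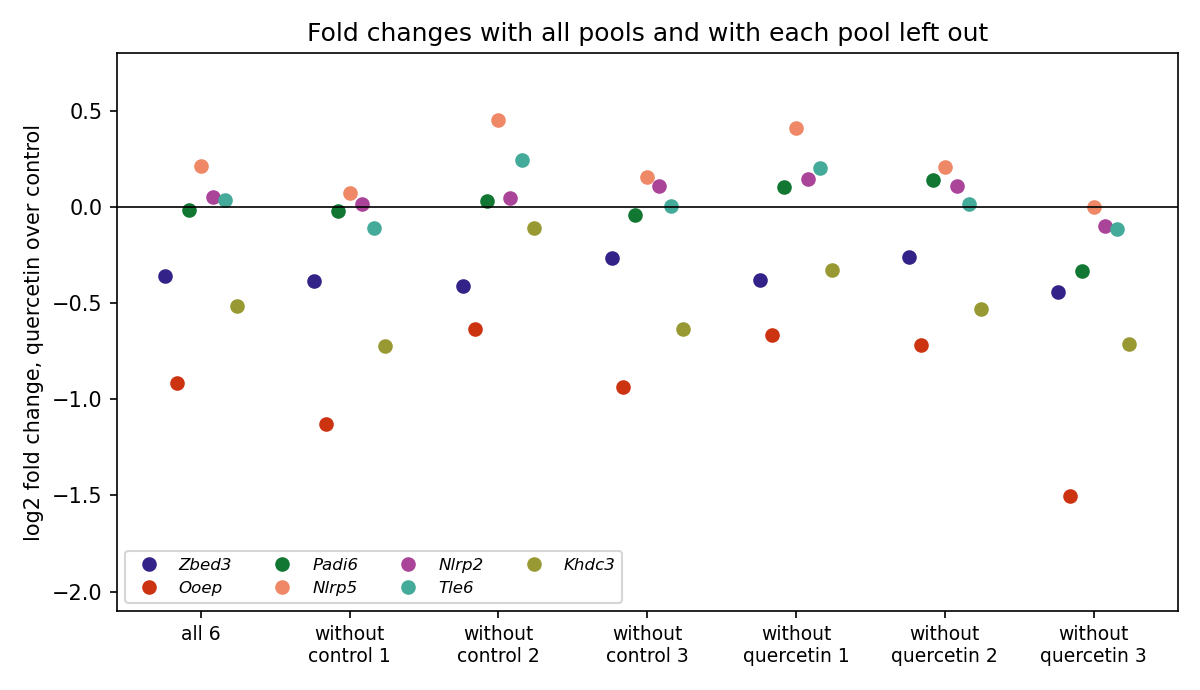
Log2 fold change of quercetin over control (vertical axis) for each gene with all 6 pools and with each pool left out (horizontal axis). *Ooep* stays below 0 throughout and moves between -1.50 and -0.63, and the values of 6 of 7 genes are lowest without quercetin replicate 3.

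The 7 genes together took 0.749%, 0.820% and 0.847% of all counts in control and 0.562%, 0.485% and 0.761% with quercetin. On this scale only quercetin replicate 3 reached into the control range. The mean share was 0.806% ± 0.0505 in control and 0.603% ± 0.143 in quercetin (SD, n = 3), and the two-sided exact permutation test gave p = 0.2. Summed as TMM-scaled CPM, the genes stood at 7291, 7770 and 8487 CPM in control and at 5961, 5286 and 7267 CPM with quercetin. On this scale the groups did not overlap (exact permutation p = 0.1, the smallest possible). *Zbed3* supplied 74.1% to 83.8% of these counts. Without it, the share was 0.166% ± 0.0417 in control and 0.129% ± 0.0558 in quercetin (exact permutation p = 0.4).

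Within groups, 5 of the 7 genes differed between pools by more than the median abundant gene, and *Nlrp2* and *Zbed3* by less. The standard deviation of log2 CPM within groups was 0.651 for *Ooep*, 0.501 for *Khdc3*, 0.401 for *Nlrp5*, 0.342 for *Tle6*, 0.333 for *Padi6*, 0.188 for *Nlrp2* and 0.170 for *Zbed3*. The median over 3610 genes with a mean log2 CPM of at least 5 was 0.212. *Ooep* varied more than 96.4% of these genes and *Khdc3* more than 93.5%, whereas *Nlrp2* and *Zbed3* varied more than 39.4% and 31.6%. From the lowest to the highest pool, *Ooep* differed 4.11-fold, *Khdc3* 2.97-fold and *Nlrp2* 1.39-fold.

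Of the 7 genes, all were below their own means in quercetin replicate 1, where 48.6% of all tested genes were, and 1 was below in control replicate 2 (46.4% of all tested genes) and in quercetin replicate 3 (48.9%). The other pools were mixed, with 4 below in control replicate 1, 3 in control replicate 3 and 5 in quercetin replicate 2. Averaged over the 7 genes, the departure of log2 CPM from each gene's own mean was 0.39 in control replicate 2 and 0.30 in quercetin replicate 3. It was 0.09 in control replicate 3 and -0.13 in control replicate 1. The lowest departures were -0.23 in quercetin replicate 2 and -0.42 in quercetin replicate 1. The pools fall in the same order along the first principal component, which also contains these genes. The gene below its mean in quercetin replicate 3 was *Zbed3*, at -0.01. The 3 genes whose pool pattern came closest to this average, of 6172 that varied at least as much, were *Ubl7*, *Caprin2* and *Prr14*, with root mean square differences of 0.0203, 0.0397 and 0.0447 log2 units over 6 pools.

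**Figure D4:**
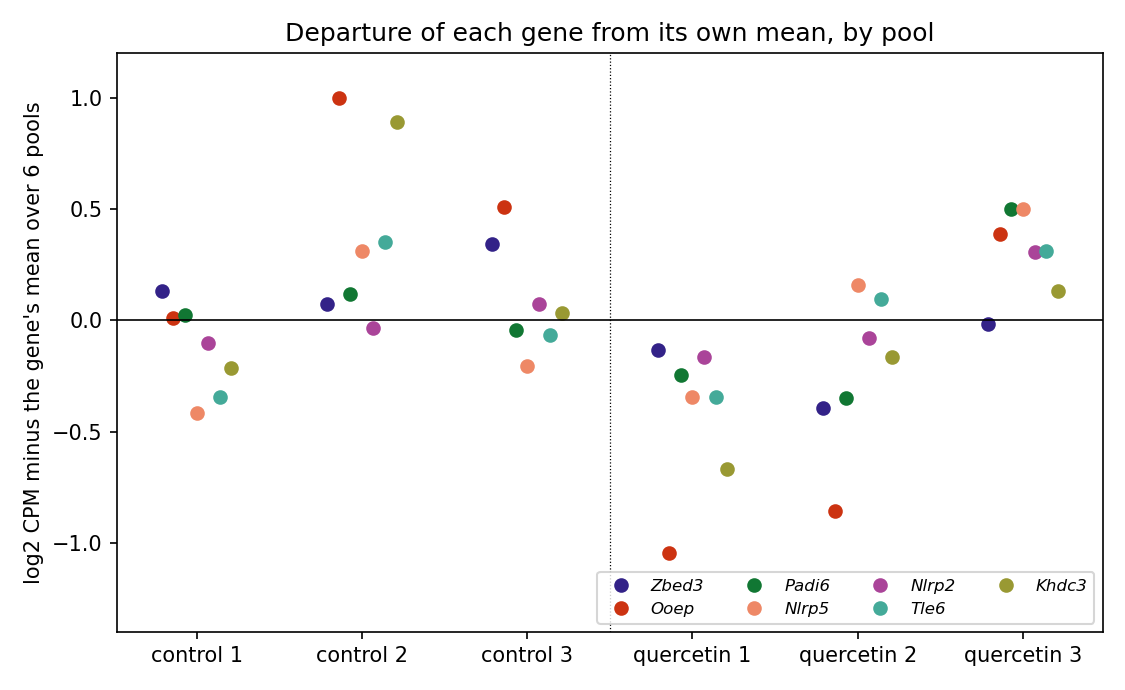
Departure of log2 CPM from each gene's mean over the 6 pools (vertical axis), by pool (horizontal axis). *Ooep* and *Khdc3* reach highest in control replicate 2 and lowest in quercetin replicate 1, and all 7 genes are below 0 in the latter pool.

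Ratios between complex genes within a pool do not depend on sequencing depth or on scaling between pools. The ratio of *Nlrp5* to *Tle6*, in TPM, was the most even of the 21 pairs. It was 1.31, 1.34 and 1.25 in control and 1.37, 1.43 and 1.57 with quercetin, so that its range was narrow and it was still higher in every quercetin pool. The ratio of *Nlrp5* to *Khdc3* was 2.91, 2.23 and 2.84 in control, and 4.20, 4.19 and 4.30 with quercetin. Quercetin replicate 3 was no exception here, and the control pools were all lower. *Tle6* to *Khdc3* was also higher, with 2.23, 1.67 and 2.27 in control pools against 3.06, 2.92 and 2.75 in quercetin pools.

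*Ooep* was lower in every quercetin pool than in any control pool when set against *Nlrp5*, *Tle6*, *Padi6* or *Nlrp2*, but not against *Khdc3* or *Zbed3*. *Nlrp5* to *Ooep* was 0.176, 0.147 and 0.144 in control and 0.384, 0.477 and 0.256 with quercetin. *Ooep* to *Tle6* was 7.43, 9.09 and 8.67 in control and 3.58, 3.01 and 6.13 with quercetin. The ratio of *Ooep* to *Padi6* was 1.74, 3.23 and 2.57 against 1.01, 1.24 and 1.62. Quercetin replicate 3 was nearest the controls in each of these ratios but stayed outside their range. *Ooep* to *Khdc3* overlapped, with 16.6, 15.2 and 19.7 in control and 11.0, 8.78 and 16.8 with quercetin.

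In all, 8 of 21 ratios did not overlap between the groups, and over all pairs of the 3610 abundant genes 12.6% did not. *Ooep* took part in 4 of the 8, among them *Nlrp2* to *Ooep*, and the remaining pair was *Nlrp2* to *Zbed3*, both higher in quercetin pools. The pairs share genes and are not independent, those described were picked after the values were seen, and no test was made on them.

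**Figure D5:**
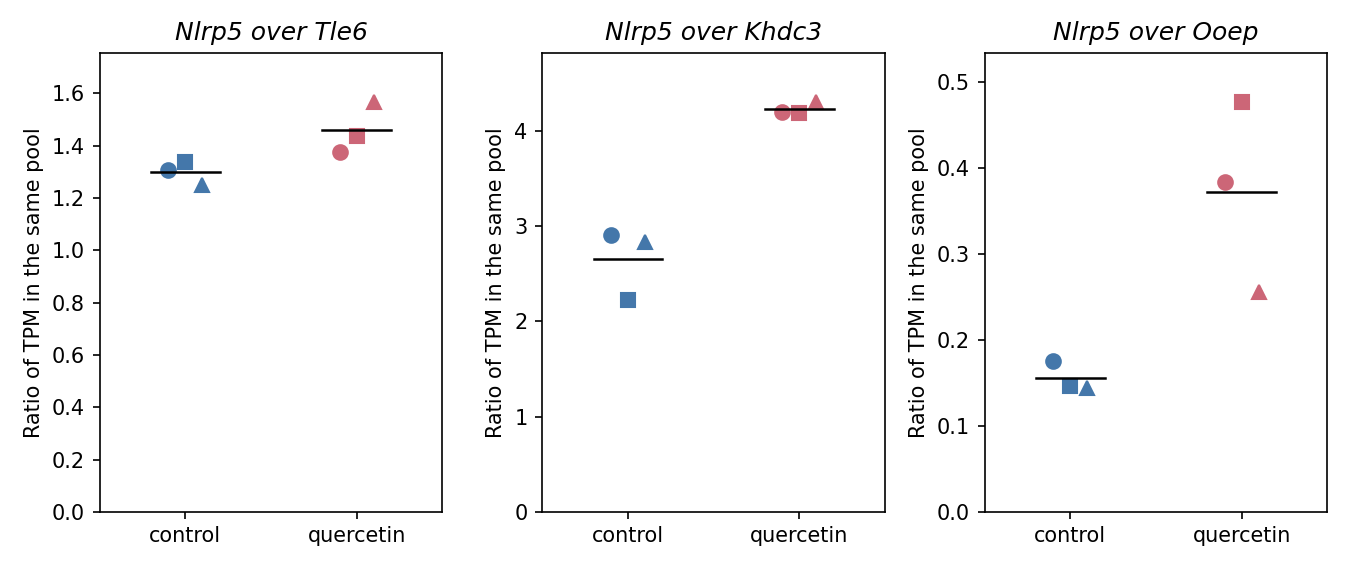
Ratio of the TPM of *Nlrp5* to that of *Tle6*, *Khdc3* and *Ooep* within each pool (vertical axes, starting at 0), for control (blue) and quercetin (red) pools, with bars for group means and marker shapes for replicate numbers. In each panel the quercetin pools lie above the control pools, and *Nlrp5* to *Khdc3* sits between 4.19 and 4.30 in the quercetin pools.

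Genes that work with the complex, paralogues of its members and other maternal effect genes were read from the same fit. Of 58 such genes in 7 lists, 44 were tested and 0 had an adjusted p under 0.05 with a fold change over 2 or an unadjusted p under 0.05 in edgeR's quasi-likelihood test. With scaling by library size only, 3 of 44 had an unadjusted p under 0.05, all lower, beside 4.28% of all tested genes in either direction and 3.06% lower. That scaling also placed the median log2 fold change of all genes at -0.11. They were *Padi2* (-0.999), *Uhrf1* (-0.35) and *Zar1* (-0.32 on the log2 scale), and the adjusted p of edgeR was 0.937 for each.

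Among 7 partners of the complex and the lattices, all tested, the median log2 fold change was -0.14 (3 positive, 4 negative). The highest levels were those of *Nlrp14* (1229 TPM), *Skp1a*, a ubiquitin ligase adaptor (1038 TPM), and *Nlrp4f* (853 TPM). Of 17 *Nlrp* paralogues 10 were tested, with 8 positive and 2 negative log2 fold changes and a median of 0.18. Over all tested genes 53.6% were negative and the median was -0.03. *Nlrp14* and *Nlrp4f* are counted among the partners and again among these paralogues. *Nlrp4a* (1634 TPM), *Nlrp14* and *Nlrp9c* (1019 TPM) had the highest levels among the paralogues. The untested ones include *Nlrp3*, the inflammasome sensor, with 1 count in all pools, and 3 genes at 0 in every pool (*Nlrp1b*, *Nlrp4d* and *Nlrp10*), which allows at most the floor given above. Of the 10 tested paralogues, all but *Nlrp4c* (23.7 TPM) had a higher mean TPM than *Nlrp5*.

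The 4 KH-domain paralogues had a median log2 fold change of -0.30, with *Khdc1b* at 1719 TPM, *Dppa5a* at 195 TPM and *Khdc1c* at 92.6 TPM. *Dppa5a* was uneven, with 128, 1014 and 325 counts without quercetin and 128, 389 and 572 counts with it. Relatives of *Tle6*, *Padi6* and *Zbed3* were scarce in these oocytes. *Tle4* was at 6.36 TPM, *Aes* at 1.26 and *Tle1* at 0.669 TPM, with 3 of 5 tested and a median log2 fold change of -0.28. *Padi2*, the tested one of 4, was at 0.726 TPM (log2 fold change -0.91, unadjusted p of edgeR 0.0645), and *Zbed4* and *Zbed5* were at 4.92 and 3.72 TPM, with a median of -0.12 over 2 of 3 tested.

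Of 20 other maternal effect genes, whose products act in the embryo before its own genome takes over, 19 were tested. The log2 fold changes were positive for 4 and negative for 15, with a median of -0.16, and none had an unadjusted p under 0.05 in edgeR, where 53.6% of all tested genes had negative values. *Dppa3*, which protects maternal DNA methylation, had the highest level (22704 TPM, log2 fold change 0.11), followed by *Btg4*, an adaptor for mRNA decay (10466 TPM, 0.12), and *Npm2*, a nucleoplasmin (498 TPM, -0.48).

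The pools carried the markers of oocytes. All 10 oocyte genes were tested and together took 2.40% to 2.92% of counts, with *Oosp1* (14601 TPM), *H1foo* (13997 TPM) and *Gdf9* (7314 TPM) highest. *Ddx4*, a germ cell helicase, had an unadjusted p of 0.0243 in edgeR (log2 fold change 0.43, adjusted p 0.988). The zona pellucida gene *Zp2*, picked after its values were seen, had 1990, 12980 and 5601 counts without quercetin and 1045, 7734 and 11260 counts with it, with its extremes in the same pools as *Ooep*. The 12 cumulus and granulosa markers took 0.00744% to 0.00868% of counts in control pools and 0.00891% to 0.00967% in quercetin pools, and these ranges did not overlap. Among single genes, 5.42% of all tested genes were entirely higher in quercetin pools in TMM-scaled CPM. *Foxl2*, *Amh* and *Ptx3* were at 0 in every pool. *Cyp19a1* was the most abundant and supplied most of the counts of these markers in every pool. It was at 64.3 ± 5.33 CPM in control and 74.6 ± 1.42 CPM in quercetin (36.5 TPM over all pools). Its unadjusted p in edgeR was 0.183 and its adjusted p 0.988. *Kitl* (4.08 TPM) and *Has2* (2.35 TPM) followed. *Kitl* had an unadjusted p of 0.0209 in edgeR (log2 fold change 0.59, adjusted p 0.988). Of the 12 markers 4 were tested, with 3 positive log2 fold changes and 1 negative. The negative one was *Ptgs2*, at 2.09 CPM in control and 1.31 CPM in quercetin (log2 fold change -0.68, unadjusted p of edgeR 0.291). The part of these markers in the differences of the complex genes was not tested.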

How the data were processed

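The authors made libraries from pooled oocytes with the Smart-seq HT kit, sequenced them on an Illumina NovaSeq and deposited raw counts of reads per Ensembl gene and pool, neither normalized nor averaged over replicates. The paper's methods name Hisat2 and a GRCm38 reference, whereas the submitters' processing notes name TopHat2 2.0.6 and CASAVA 1.8. The counting program and its handling of strand and of reads matching several genes are not given in the sources used here.

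Conditions and replicate numbers came from the sample labels. Gene symbols matched 53274 of 53465 identifiers. Of 24476 genes with a count, 11842 passed filterByExpr (minimum count 10) of edgeR 4.0.16 in R 4.3.3 and were tested with glmQLFit and glmQLFTest after TMM scaling (factors 0.920 to 1.06), without covariates, and adjusted by Benjamini-Hochberg over every tested gene. CPM of genes use the scaled library sizes. Single values were compared by two-sided exact permutation tests. TPM were computed here from the counts and the union of exons in GENCODE M21, for 53360 genes. The fit was tested on simulated data.

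All 7 complex genes are named. From each other list, genes at an unadjusted p under 0.05 (at most 5) and the 3 with the highest mean TPM are named, as are the 3 genes with the most similar pool pattern. The genes and the lists were chosen with earlier results of these data known. The alternatives tried were the likelihood ratio test of edgeR, DESeq2 1.42.0, limma-voom (limma 3.58.1), DESeq2 size factors or library size only, no filter or at least 10 counts in every pool, the replicate number as a block, each pool left out, and another gene length. Python 3.11.15 with pandas 2.3.3 and matplotlib 3.10.9 was used for joins and plots. Promoter windows came from RefSeq (GRCm38.p6). Protein sequences were not used here.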

Additional observations from a re-analysis of the deposited data

How the results depend on the processing

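In 14 alternatives, 87 of 98 fold changes of the 7 genes had the same sign and the same side of the adjusted threshold as reported, 11 changed sign, and no complex gene was called. *Ooep*, *Khdc3* and *Zbed3* stayed negative in all 14. Sign changes had small values. *Padi6* was 0.0031 with DESeq2 and with DESeq2 size factors in edgeR, and -0.33 to 0.14 with a pool left out (0.030 without control replicate 2, 0.10 and 0.14 without quercetin replicates 1 and 2). With library size only, *Nlrp2* was -0.018 and *Tle6* -0.041. With a pool left out, *Tle6* ranged from -0.11 to 0.25 (-0.11 without control replicate 1 or quercetin replicate 3), *Nlrp2* from -0.10 to 0.15 and *Nlrp5* from -0.00018 to 0.45. The adjusted p ranged from 0.183 to 1.00 for *Ooep* and from 0.293 to 1.00 for *Zbed3*.

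The number of complex genes at an unadjusted p under 0.05 was 2 in the report, beside 4.03% of all tested genes. With the share of all tested genes in brackets, it was 1 with DESeq2 (3.24%) and the likelihood ratio test (3.54%). It was also 1 with DESeq2 size factors in edgeR (4.21%) and library size only (4.28%). With a pool left out it was 0 to 3, beside 1.98% to 12.8% of all tested genes. The remaining gene was *Zbed3* with library size only, and *Ooep* with DESeq2, the likelihood ratio test and DESeq2 size factors in edgeR. The number was 0 without control replicate 2 (1.98% of all tested genes), control replicate 3 (3.51%), quercetin replicate 1 (3.05%) or quercetin replicate 2 (2.64%). Over all genes, DESeq2 called 12 (5 higher, 7 lower), the likelihood ratio test 16, the fit with no filter 3, and fits with a pool left out 0 to 7. Genes at an unadjusted p under 0.05 numbered 780 with no filter, 241 without control replicate 2 and 1563 without quercetin replicate 3. The other lists gave 3 genes with library size only and 0 with DESeq2 size factors. The difference in the summed share, -0.203 percentage points, ranged from -0.282 to -0.144 with a pool left out, and was -0.168 as TMM-scaled CPM. With the longest coding transcript as length, 2 places in the order of levels changed. The causes were not tested.

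The labels number the pools 1 to 3 in each group, but deviations of same-numbered pools correlated at 0.296, 0.101 and -0.0303, and control replicate 2 correlated best with quercetin replicate 3 (0.176), so pairing by number was not established. With the replicate block, 1 complex gene, *Ooep*, had an unadjusted p under 0.05. *Ooep* was -1.01 (unadjusted p of edgeR 0.0117) and *Zbed3* -0.36 (0.0608), and all genes at that threshold numbered 492 (4.15% of those tested). With 165 to 511 counts, *Khdc3* is the gene where counting error weighs most.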

Other observations

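*Ube2d3*, a ubiquitin-conjugating enzyme found with the cytoplasmic lattices, was picked after its values were seen. It had 28922, 26270 and 30198 counts without quercetin and 27024, 37415 and 9547 counts with it, and quercetin replicate 3 was below every other pool.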
